A study of Mus musculus with 2 samples.

Results

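Transcripts that the GENCODE M21 annotation types as retained intron were followed in polyA-selected RNA of mouse macrophages grown in culture from bone marrow. The members were chosen by 2 values: the type, and a TPM (transcript abundance scaled to a fixed total) of 5 or more in both libraries. The TPM came from the deposited tables of expected counts made from a transcriptome alignment, called here the first quantification. The rule kept 620 of 21848 annotated retained-intron transcripts, or 2.84%, among 141767 annotated transcripts of all types. They belonged to 501 of the 9421 genes that have such a transcript, and 416 of the 501 genes had 1 member, 65 had 2 and 20 had 3 or more. All values of the first quantification below chose the members, so they are given as a description, with no test.

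The series as used here held 1 group, 2 biological replicates of C57BL/6J macrophages, with no untreated sample. Per the description in the labels, both had 100 ng/ml Lipid A for 12 h, a washout of 12 h, and 100 ng/ml Lipid A again for 300 min. Lipid A is the membrane anchor of bacterial lipopolysaccharide and acts through Toll-like receptor 4. The treatment field of the labels instead names lipoprotein A, and the labels do not settle which is right. Sex and age were not collected, and both libraries carry 1 donor identifier with separate biosamples. The spread between them may therefore be smaller than the spread between animals.

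A retained-intron transcript is an annotated RNA that contains sequence which other transcripts of its gene splice out. Such RNAs carry no annotated reading frame, are often held in the nucleus or degraded by nonsense-mediated decay, and are a known layer of gene control in blood and immune cells. In mouse macrophages the gene for the interferon regulator Irf7 is a known case, with a short and poorly spliced intron. A transcript's share is its TPM as a percent of the summed TPM of all transcripts of its gene in the same library and table. A further set of deposited tables, made directly from the reads and called the second quantification, gave the same transcripts a separate estimate from the same 2 libraries. The 2 quantifications share their reads, so they are 2 ways of assigning them and not 2 measurements. Each splits the reads of a gene between overlapping transcripts, and no table gave coverage over an intron itself.

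The first quantification held 50493948 expected counts over genes in replicate 1 and 46336437 in replicate 2. All 10 macrophage markers checked were at 10 TPM or more in both libraries, and their sum was 20652 and 20637 TPM. The T cell, B cell, fibroblast, dendritic and erythroid markers were under 1 TPM in both. The 5 neutrophil markers summed to 61.3 TPM in replicate 1 and 3.84 in replicate 2, with Ly6g at 0 in both, and their part in differences between the libraries was not tested.

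The annotated type does not require a whole intron, since a transcript that holds part of one also contains sequence that others splice out. An intron of a protein-coding transcript of the same gene, of at least 30 nt, lay whole inside an exon of 186 of the 620 members. In the other 434 no such intron lay whole. Among these, 264 only began inside an intron and read through its 3′ splice site, 125 only read through a 5′ splice site and ended inside the intron, 23 did both and 22 did neither. Among the 21228 retained-intron transcripts not chosen, 29.6% held a whole intron. With introns of any other transcript of the gene counted, 208 members held a whole one. The genes of 6 members had no protein-coding transcript, so these members could not be among the 186. The members are therefore called by their annotated type here, and the 186 are called whole-intron members.

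The sequences below are whole introns inside members, shown because these are among the members that carried at least 25% of their gene, with a mean of 50 TPM or more, and an intron of at most 300 nt between coding exons. The Irf7 intron is added as the known case in macrophages. All are in mm10 with GENCODE M21 transcripts, 5′ to 3′ on the gene's strand. Capitals mark the first 6 bases, the 5′ splice site side, and the last 3 bases, the 3′ splice site. The introns are intron 1 of 3 of Rps20-203 (chr4:3835292-3835483, minus strand), intron 1 of 12 of Sugt1-201 (chr14:79587867-79587953, plus strand) and intron 3 of 4 of Prelid1-201 (chr13:55324445-55324526, plus strand). Next come intron 1 of 4 of Cd83-201 (chr13:43785251-43785345, plus strand), intron 10 of 13 of Ncl-201 (chr1:86352320-86352509, minus strand) and intron 6 of 11 of Tap2-201 (chr17:34212068-34212229, plus strand). The last are intron 6 of 14 of Pirb-201 (chr7:3716891-3717117, minus strand), intron 4 of 8 of Calr-201 (chr8:84844784-84844870, minus strand), intron 3 of 6 of Psmb8-203 (chr17:34199381-34199570, plus strand) and intron 5 of 9 of Irf7-201 (chr7:141264656-141264724, minus strand).
Rps20-201: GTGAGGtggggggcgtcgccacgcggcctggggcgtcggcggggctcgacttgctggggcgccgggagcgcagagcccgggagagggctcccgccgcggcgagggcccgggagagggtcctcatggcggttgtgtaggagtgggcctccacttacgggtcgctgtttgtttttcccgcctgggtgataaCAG
Sugt1-205: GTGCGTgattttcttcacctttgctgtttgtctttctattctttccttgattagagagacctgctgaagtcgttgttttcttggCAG
Prelid1-202: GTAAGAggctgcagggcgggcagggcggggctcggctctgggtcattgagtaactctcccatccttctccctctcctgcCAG
Cd83-202: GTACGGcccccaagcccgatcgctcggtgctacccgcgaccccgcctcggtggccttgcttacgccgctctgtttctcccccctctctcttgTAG
Ncl-202: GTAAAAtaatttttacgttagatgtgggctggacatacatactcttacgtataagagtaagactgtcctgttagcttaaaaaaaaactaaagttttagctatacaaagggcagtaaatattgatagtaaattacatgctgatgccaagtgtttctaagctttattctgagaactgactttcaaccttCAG
Tap2-202: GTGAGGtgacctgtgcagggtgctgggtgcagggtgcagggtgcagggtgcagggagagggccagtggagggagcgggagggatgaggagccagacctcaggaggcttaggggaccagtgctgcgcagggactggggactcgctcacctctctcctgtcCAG
Pirb-202: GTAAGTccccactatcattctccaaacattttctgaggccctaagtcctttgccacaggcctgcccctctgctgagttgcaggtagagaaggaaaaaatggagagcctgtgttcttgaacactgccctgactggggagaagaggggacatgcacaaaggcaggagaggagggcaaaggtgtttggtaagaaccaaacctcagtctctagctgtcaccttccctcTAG
Calr-204: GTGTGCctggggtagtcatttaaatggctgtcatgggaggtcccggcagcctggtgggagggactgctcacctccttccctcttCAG
Psmb8-205: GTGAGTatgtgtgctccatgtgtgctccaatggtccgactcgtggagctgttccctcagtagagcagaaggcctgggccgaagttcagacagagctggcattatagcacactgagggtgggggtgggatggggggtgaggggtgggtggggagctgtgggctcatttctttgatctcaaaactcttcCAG
Irf7-210: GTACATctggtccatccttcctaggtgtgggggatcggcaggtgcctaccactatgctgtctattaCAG

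For each of these introns, the TPM of the transcripts that hold it was set against the summed TPM of those that hold or splice it. Rps20 encodes a protein of the small ribosomal subunit, and transcripts that hold its intron 1 took 89.2% and 95.2% of that sum in replicates 1 and 2 of the first quantification, and 86.9% and 94.1% in the second. Sugt1, a co-chaperone of HSP90, had 88.6% and 91.9%, then 89.5% and 91.8%. Prelid1, a lipid carrier of mitochondria, had 83.2% and 82.6%, then 80.2% and 79.5%. In these 3 genes all 4 values, which are in TPM, lay above 50%. Each of these 3 introns was spliced by 1 annotated transcript, of 3706 nt in Rps20, 7392 nt in Sugt1 and 2644 nt in Prelid1. A share of the gene is taken over all its transcripts and so has another base. Mean shares of the gene in TPM were 91.6% for Rps20-201, 74.0% for Sugt1-205 and 82.9% for Prelid1-202. By expected counts, which weight molecules by length, these shares were 53.9%, 43.6% and 65.7%.

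Cd83, a surface glycoprotein of activated antigen-presenting cells, had 77.5% and 86.7% in the first quantification and 72.1% and 83.2% in the second. Ncl encodes nucleolin, a protein of the nucleolus, and had 78.4% and 82.0%, then 87.5% and 88.6%. Tap2, a subunit of the peptide transporter for MHC class I, had 74.8% and 71.6%, then 74.6% and 70.4%. The value was higher in replicate 2 for Cd83 and Ncl and lower for Tap2, in both quantifications.

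Pirb, an inhibitory receptor of myeloid cells, had 55.0% and 52.7% in the first quantification and 68.9% and 68.2% in the second, so the quantifications differed by more than the libraries did. Calr encodes the chaperone calreticulin and had 22.0% and 33.8%, then 27.7% and 38.1%. Psmb8, a catalytic subunit of the immunoproteasome, had 24.4% and 27.3%, then 25.1% and 28.6%. For the 69 nt intron of Irf7, transcripts that hold it took 20.1% and 15.1% in the first quantification and 21.7% and 17.2% in the second. Of the 10 introns, 7 were above 50% in all 4 tables and the other 3 were below 50% in all 4.

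**Figure D1:**
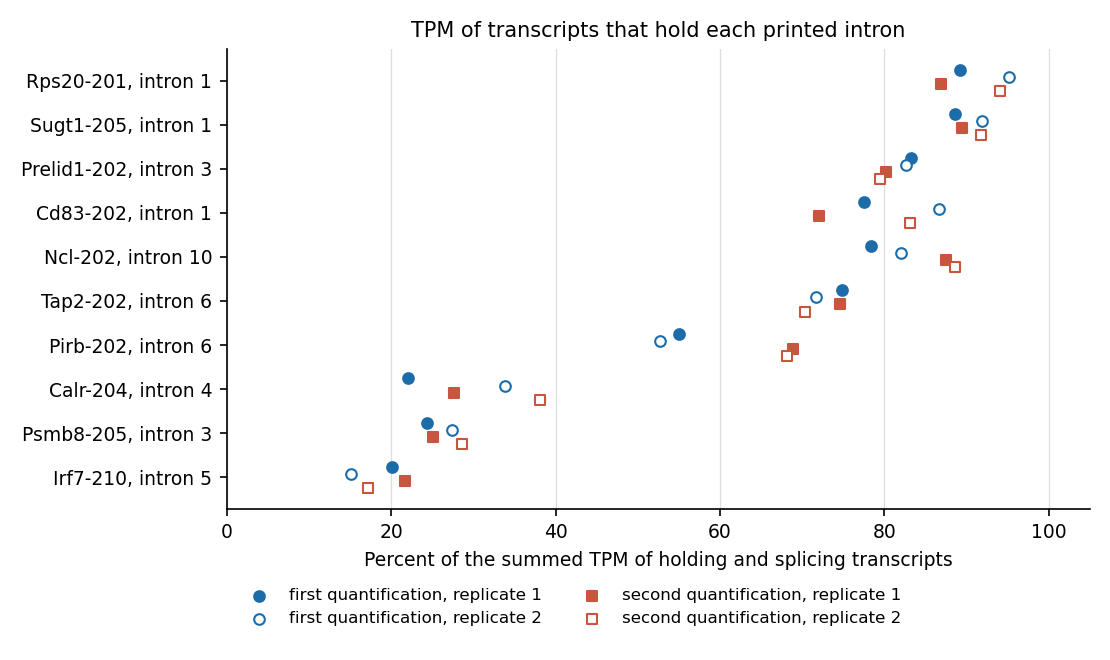
Percent of the summed TPM of holding and splicing transcripts that belongs to transcripts holding the intron (x axis), for the 10 introns printed here (y axis). Circles are the first and squares the second quantification, filled for replicate 1 and open for replicate 2; Rps20 spans 86.9% to 95.2% and Irf7 15.1% to 21.7%.

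These percentages rest on whole transcripts, not on reads over the intron. Rps20-201 is 582 nt long and its 192 bases of intron are its only bases in no other transcript of the gene. Prelid1-202 has 82 such bases of 1204, Cd83-202 has 95 of 2158 and Sugt1-205 has 87 of 897. In each of these members the intron makes up all the bases that no other transcript of its gene has. Exon junctions and transcript ends were not compared. Irf7-210 and Pirb-202 have no base of their own, since the other annotated transcripts of their genes together cover every base.

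Across all whole-intron members, 267 distinct introns of 152 genes were held. Their median length was 194 nt (quartiles 107 and 587 nt, range 69 to 4560), against 281 nt for 8385 introns inside retained-intron transcripts not chosen. In the most abundant coding transcripts of the same genes, 205 of 1719 introns were held, with a median of 187 nt, and the introns not held had a median of 459 nt. The held introns were therefore shorter than their neighbours in the same genes. GC content was near equal, at a median of 51.8% in the held introns and 51.3% in those not chosen.

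Splice-site bases of the held introns were of the common kinds. GT at the start and AG at the end stood in 261 of 267, GC and AG in 4, and other ends in 2. The first 6 bases were GTGAGT in 15.4% of held introns and 14.6% of those not chosen, GTAAGT in 13.1% and 9.19%, and GTGAGG in 10.5% and 6.06%. A length that is a multiple of 3 was found in 33.3% and 33.2%. First introns made up 32 and last introns 37 of the 267, and 246 lay between coding exons.

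Over the 267 introns, holding transcripts took a median of 14.2% in the first quantification and 14.8% in the second. The value was 50% or more for 68 introns in the first and for 66 of them in both. It was 90% or more for 26, and these included introns that only a minor coding transcript splices. The 150 nt intron with GC and AG ends in the beta-actin gene Actb is one, named after its value was seen. It is held at 99.9% in replicate 1 of the first quantification, since the abundant coding Actb-201 holds it too and only Actb-203 splices it. The quantifications lay 10 or more percentage points apart for 39 of the 267.

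Most members lacked a whole intron, and the next sequences show intron stretches found in such members. They are the intron stretches at the 3′ end of 2 members that read past a 5′ splice site, from among the most abundant whose stretch equals all bases that no other transcript of the gene has. Capitals mark the first 6 bases of the intron. Sod2-204 keeps 115 bases of the 2796 nt intron 3 of Sod2-201 (chr17:13010637-13010751, plus strand). Myl12b-202 keeps 112 bases of the 1427 nt intron 2 of Myl12b-204 (chr17:70976936-70977047, minus strand).
Sod2-204: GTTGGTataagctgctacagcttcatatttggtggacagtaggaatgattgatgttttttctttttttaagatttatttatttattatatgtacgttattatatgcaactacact
Myl12b-202: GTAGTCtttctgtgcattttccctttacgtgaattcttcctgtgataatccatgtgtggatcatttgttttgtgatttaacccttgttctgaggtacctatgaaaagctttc

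AATAAA, the letters of the canonical polyadenylation signal, searched on the transcript's strand alone, lay in the last 50 bases of 17 of 128 members that keep 50 nt or more of an intron at their end (13.3%). They lay there in 12.2% of the 8635 such transcripts not chosen. Ms4a6c-202, the most abundant member that only ends inside an intron and has bases of its own, comes from a gene for a membrane protein of the MS4A family. It stood at 540 and 666 TPM in replicates 1 and 2 of the first quantification and at 487 and 596 in the second. Its share of the gene was 33.9% and 38.2%, then a mean of 34.5%, and by expected counts a mean of 11.9%. Over all 148 members without a whole intron that ended inside an intron, the stretch had a median of 131.5 nt in introns of a median 1833 nt, and 145 began with GT. The 9107 such transcripts not chosen kept a median of 399 nt.

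The stretches at the 5′ end of 3 members that begin inside an intron follow, as the most abundant by the same measure. Capitals mark the last 3 bases of the intron. Itm2b-202 begins 78 bases before the end of the 16582 nt intron 1 of Itm2b-201 (chr14:73368428-73368505, minus strand). Vim-203 begins 52 bases before the end of the 670 nt intron 4 of Vim-201 (chr2:13579369-13579420, plus strand). Rps16-203 begins 68 bases before the end of the 140 nt intron 1 of Rps16-201 (chr7:28350924-28350991, plus strand).
Itm2b-202: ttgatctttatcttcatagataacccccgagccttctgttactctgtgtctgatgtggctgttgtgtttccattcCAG
Vim-203: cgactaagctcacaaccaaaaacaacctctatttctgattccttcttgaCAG
Rps16-203: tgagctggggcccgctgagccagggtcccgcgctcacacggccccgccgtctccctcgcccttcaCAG

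Over all 287 members without a whole intron that began inside one, the stretch had a median of 95 nt, and 286 of the 287 stretches ended in AG. The 6847 such transcripts not chosen began a median of 203 nt inside. The remainder of such a member repeats exons of other transcripts, so its estimate turns on how reads of shared exons were divided. Over all 620 members, 101 had no base of their own, 215 had 1 to 99 and 304 had 100 or more. The median was 96 bases in members and 290 in transcripts not chosen, at median lengths of 810 and 885 nt.

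Levels of the members spanned a wide range. The mean TPM of both libraries ran from 5.16 to 4193, with a median of 13.9, and 36 members reached 100 TPM while 218 stayed under 10. All retained-intron transcripts took 3.67% and 3.78% of transcript TPM in replicates 1 and 2, and the 620 members took 75.1% and 80.6% of that class total. Another 8055 retained-intron transcripts were listed at 0 in both libraries, and 9667 were above 0 in both.

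The 3 most abundant members alone made up 30.8% and 36.7% of member TPM. H2-K1-215, from an MHC class I heavy chain gene, stood at 3679 and 4707 TPM in the first quantification and at 1380 and 2166 in the second. Ctsb-202, from the gene of the lysosomal protease cathepsin B, stood at 3155 and 4451 TPM, then at 3778 and 4838. Itm2b-202, from a gene for a small transmembrane protein, stood at 1672 and 2021 TPM, then at 1785 and 2105. All 3 were higher in replicate 2 in both quantifications, and H2-K1-215 was lower in both libraries of the second than in either library of the first.

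H2-K1-215 took 46.5% and 51.5% of H2-K1 in the first quantification (SD 3.55 percentage points, n = 2) and a mean of 29.5% in the second. It is 457 nt long, begins 20 bases inside an intron and has no base of its own. MHC class I genes are closely similar to one another. How reads were divided between them was not tested, so the level of H2-K1-215 is uncertain. Its deposited TPM in replicate 1 also lay above the upper bound of its deposited interval, 3630 TPM, as the TPM of 15 members did in replicate 1 and of 13 in replicate 2. How often this occurred among all transcripts was not counted.

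Ctsb-202 took 43.5% and 50.6% of its gene (SD 5.04, n = 2) and a mean of 52.3% in the second quantification. The coding Ctsb-201 took a mean of 52.9% and 47.7%. By these means Ctsb-201 was ahead in the first and Ctsb-202 in the second quantification. By library, Ctsb-201 was ahead only in replicate 1 of the first, at 4100 TPM. In replicate 1 of the second it stood at 3770 TPM, close to the 3778 of Ctsb-202. Ctsb-202 has 91 bases of its own in 801, and Ctsb-201 is 4743 nt long. Itm2b-202 took 48.4% and 56.5% (SD 5.74, n = 2) and a mean of 57.6% in the second, against 47.5% and 42.3% for the coding Itm2b-201. By expected counts, which weight molecules by length, the mean shares were lower. They were 9.70% for Ctsb-202, 32.7% for Itm2b-202 and 13.1% for H2-K1-215.

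**Figure D2:**
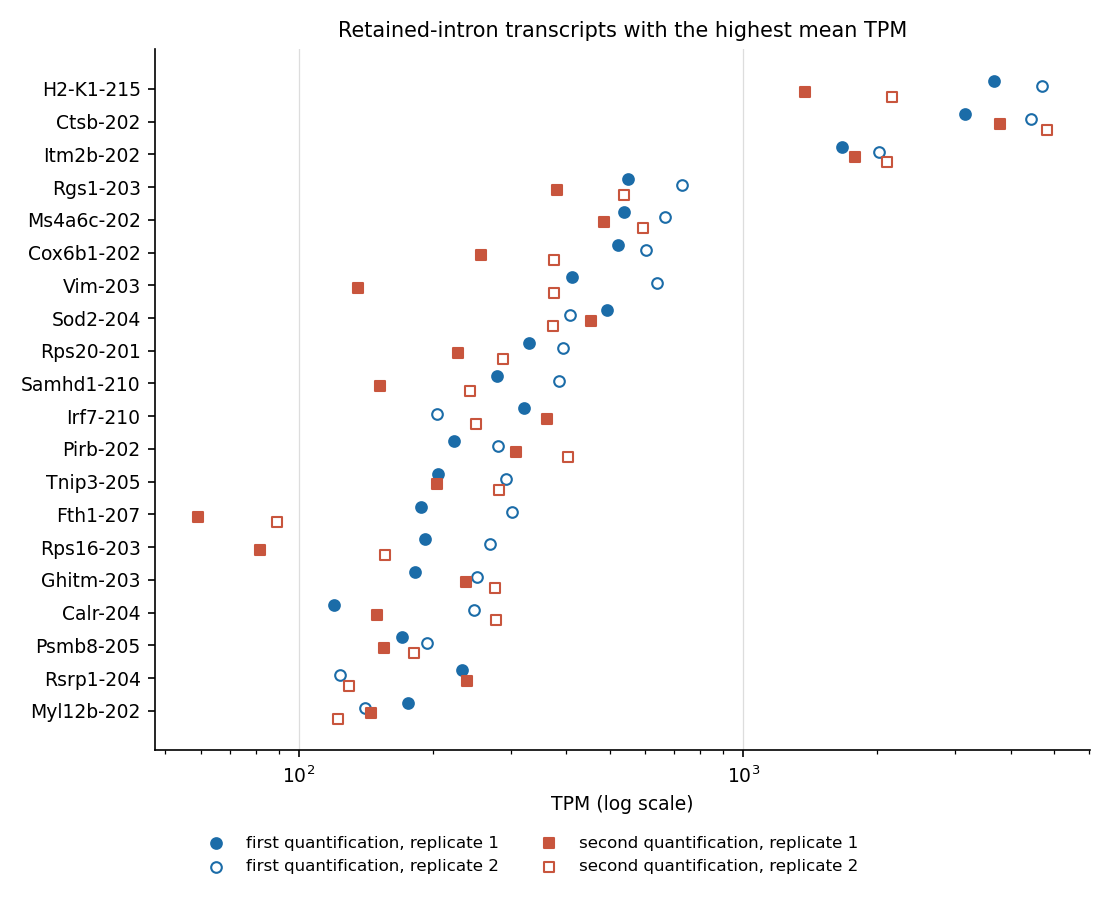
TPM (x axis, log scale) of the 20 retained-intron transcripts with the highest mean TPM (y axis, highest at the top). Circles are the first and squares the second quantification, filled for replicate 1 and open for replicate 2; H2-K1-215, Ctsb-202 and Itm2b-202 sit above 1000 TPM in all 4 tables, and Fth1-207 has its squares well below its circles.

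Among the next most abundant members, Rgs1-203, of a regulator of G protein signalling, stood at 551 and 726 TPM and took 44.7% and 46.2% of its gene. Cox6b1-202, of a subunit of cytochrome c oxidase, stood at 523 and 606 TPM and took 56.6% and 58.7%. Vim-203, of the intermediate filament protein vimentin, stood at 411 and 640 TPM in the first quantification and at 136 and 375 in the second. Vim-203 thus differed between libraries and between quantifications. By expected counts the mean shares were 11.1% for Rgs1-203, 31.9% for Cox6b1-202 and 7.21% for Vim-203.

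Sod2-204, of the mitochondrial superoxide dismutase, stood at 494 and 407 TPM, then at 455 and 373, and took 43.1% and 34.9% of its gene. Samhd1-210, of an enzyme that degrades nucleotides and restricts viruses, stood at 279 and 385 TPM and took 24.8% and 29.5%. Tnip3-205, of a protein that binds the A20 inhibitor of NF-kB signalling, stood at 206 and 292 TPM, then at 205 and 283, and took 49.6% and 58.5%. Its coding transcript Tnip3-207 took a mean of 30.6%. Tnip3-205 begins and ends inside introns, and its 233 intron bases are shared with other transcripts. By expected counts the mean shares were lower, at 14.5% for Sod2-204, 6.21% for Samhd1-210 and 25.8% for Tnip3-205.

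Abundance did not go with share in every gene. Fth1-207, of the ferritin heavy chain, stood at 189 and 302 TPM and took only 0.37% and 0.63% of Fth1, whose summed level was 50369 and 47615 TPM. In the second quantification Fth1-207 was at 59.1 and 89.4 TPM. Fth1 has many near-identical pseudogene copies. How reads were divided between the gene and these copies was not tested, so the level of this member is uncertain.

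The median share of the 620 members was 17.6% in the first quantification, 18.3% in replicate 1 and 17.3% in replicate 2. It was 12.7% in the second quantification. The same share taken from expected counts, without division by length, had a median of 5.91%. A share in TPM counts molecules and a share in counts weights them by length, and members had a median length of 810 nt beside 2387 nt for protein-coding transcripts at the same cutoff. A member took 50% or more of its gene in 67 cases in the first quantification, in 58 in the second and in 50 in both. It took under 1% in 43 and 60.

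A member was the most abundant transcript of its gene in 102 cases in the first quantification, in 87 in the second and in 73 in both. At the same cutoff, the median share was 69.3% for protein-coding transcripts, 26.3% for nonsense-mediated decay transcripts and 26.4% for processed transcripts, and 69.2%, 24.2% and 26.2% of them led their gene. For retained-intron transcripts the percent leading was 16.5%. All retained-intron transcripts of a gene were also summed, in 4966 genes at 5 TPM or more in both libraries that have one annotated. These genes need not have a member. The sum was 50% or more of the gene in 120 of them in the first quantification, and in 97 in both. Its median in the first quantification was 2.48%.

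Among genes at 10 TPM or more in both libraries, the 3 members with the highest shares overlap exons of other genes. Olfr56-205, annotated to an olfactory receptor gene, stood at 45.7 and 39.0 TPM and took 99.2% and 99.5% of the gene. It shares 111 of its 2767 bases with exons of other genes. BE692007-202, of a gene whose other 2 transcripts are typed antisense, stood at 35.0 and 27.1 TPM, and 1088 of its 4331 bases lie in exons of other genes. Its share was 98.4% and 97.9% in the first quantification and a mean of 78.4% in the second. Exoc3l4-211, of a gene related to the exocyst, took 97.6% and 97.6% and has 387 of 774 bases in exons of other genes.

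Exons of another gene overlapped 124 of the 620 members, on the opposite strand for 86. The sources used here do not say how strand was handled, and whether the reads of such members and of the overlapping gene were kept apart is not known. Members with no such overlap had a median share of 17.4%, and those with one 17.9%, in the first quantification. In the second these were 12.9% and 10.7%.

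Among the next highest shares, Mrps26-201, of a protein of the mitochondrial ribosome, stood at 10.8 and 9.70 TPM and took 93.6% and 91.9% of its gene, with a mean of 92.9% in the second quantification. Mrpl57-202, of the large mitochondrial subunit, took 89.8% and 91.5%. Prelid1-202 stood at 134 and 133 TPM and took 83.2% and 82.6%. Timm17a-204, of the import machinery of the inner membrane, took 71.8% and 69.3%, but only 4 of its bases are intronic. By expected counts the mean shares were lower, at 71.7% for Mrps26-201, 49.1% for Mrpl57-202, 65.7% for Prelid1-202 and 19.8% for Timm17a-204.

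Other members led their gene in TPM too. Taf10-202, of a subunit of the general transcription factor TFIID, took 68.0% and 81.2%. Trappc4-202, of a complex that tethers vesicles, took 67.3% and 74.6%. Ptges2-203, of a prostaglandin E synthase, stood at 10.8 and 12.6 TPM and took 85.7% and 86.2%. Tmem132a-203, a single exon over 2 introns, took 86.7% and 86.1%. By expected counts the mean shares were lower, at 48.1% for Taf10-202, 68.8% for Trappc4-202, 39.5% for Ptges2-203 and 65.9% for Tmem132a-203.

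Among the other members with the highest shares, Tap2-202 stood at 74.2 and 75 TPM and took 74.5% and 71.4% of its gene, and Cd83-202 stood at 83.8 and 127 TPM and took 77.5% and 86.7%. Ncl-202 stood at 74.8 and 74.1 TPM, held introns 9 and 10, and took 76.7% and 80.7%, while the coding Ncl-201 took a mean of 19.4%. Rps20-201 stood at 329 and 393 TPM and took 88.8% and 94.4%. Rps16-203 took 62.3% and 82.3% (SD 14.1, n = 2), which is a wide spread beside the median SD of 1.69 over all members. By expected counts the mean shares were 79.7% for Cd83-202, 66.4% for Tap2-202 and 58.9% for Ncl-202. They were 53.9% for Rps20-201 and 54.2% for Rps16-203. Ribosomal protein genes have many processed copies. How reads were divided between the genes and such copies was not tested, so the levels of Rps20-201 and Rps16-203 are uncertain.

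**Figure D3:**
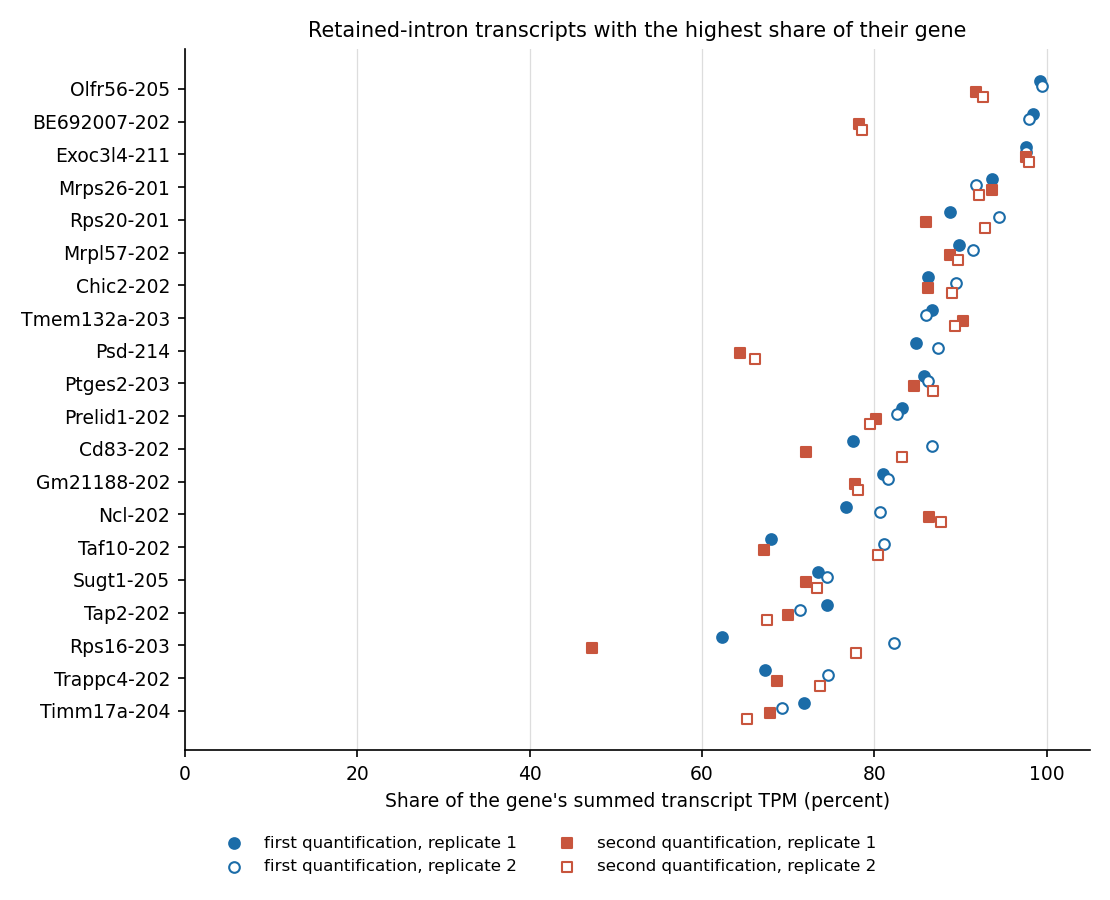
Share of the gene's summed transcript TPM (x axis, percent) for the 20 members with the highest mean share in genes of 10 TPM or more (y axis). Circles are the first and squares the second quantification, filled for replicate 1 and open for replicate 2; BE692007-202 and Psd-214 have squares well to the left of their circles, and Rps16-203 and Cd83-202 are higher in replicate 2 in both.

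The members were next counted at the same cutoff in the second quantification. Of the 620 members, 474 also had 5 TPM or more in both libraries of the second quantification. These are 76.5% of the 620 and 76.0% of the 624 that the second quantification would choose, and 150 transcripts were chosen by the second alone. Of all 10725 transcripts at the cutoff 9657 were kept, a higher part than of the members. The percent kept was 92.7% for protein-coding, 82.4% for nonsense-mediated decay and 76.0% for processed transcripts.

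Between quantifications, 120 members, or 19.4%, were 2-fold or more apart in log2((second mean TPM + 1)/(first mean TPM + 1)), of which 107 were lower and 13 higher in the second. Of all 10725 transcripts at the same cutoff, 7.31% were that far apart, 6.02% lower and 1.29% higher. The share was 4.48% for protein-coding, 14.2% for nonsense-mediated decay and 21.7% for processed transcripts. The first quantification chose every one of these sets, which favours transcripts that it placed high. Across the 620 members, which share libraries and reads, log2 TPM of both quantifications had a Pearson correlation of 0.801 and a Spearman correlation of 0.766, and shares had 0.903 and 0.849.

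**Figure D4:**
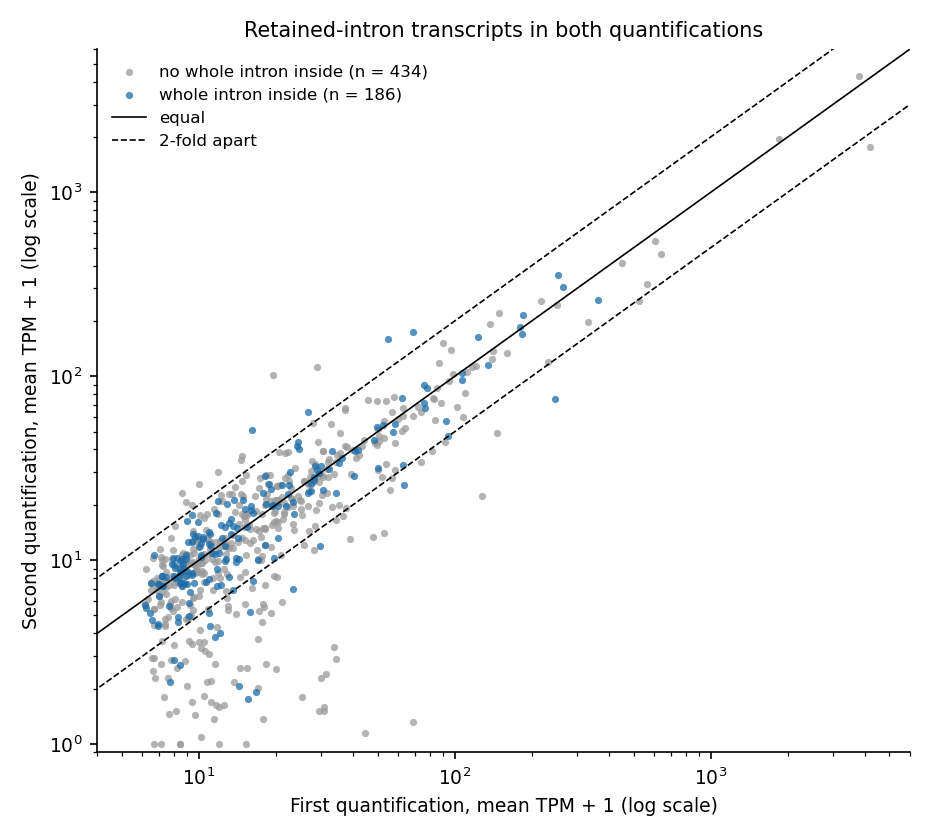
Mean TPM + 1 of both libraries in the first (x axis, log scale) and second quantification (y axis, log scale) for the 620 members. Blue points are the 186 members with a whole intron inside and grey points the 434 without; the solid line marks equal values, the dashed lines a 2-fold difference, and 107 members fall below the lower line.

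The kind of member went with how far apart the quantifications were. Of whole-intron members, 20 of 186 (10.8%) were 2-fold or more apart, and of the others 100 of 434 (23%). Of members that began inside an intron, with none whole, 80 of 287 (27.9%) were, and of those that ended inside one, 25 of 148 (16.9%). Members under 500 nt were apart in 36.0% of cases and longer ones in 16.6%. Whole-intron members had a median length of 1629 nt and the others 736 nt, and form and length were not separated. Members with 100 or more bases of their own were apart in 14.5%, those with 1 to 99 in 25.1% and those with none in 21.8%, so there was no steady order. By share, 18.8% were apart below 5% of the gene, 19.2% at 5% to 25%, 26.4% at 25% to 50% and 4.48%, or 3 of 67, at 50% or more.

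The members furthest below in the second quantification were nearly absent from it. Anpep-206, of the aminopeptidase CD13, stood at 59.1 and 75.8 TPM in the first and at 0.630 and 0 in the second. Myl6-212, of a myosin light chain, stood at 18 and 69.2 TPM, then at 0 and 0.290. Gnb2-213, of a G protein subunit, stood at 33.5 and 26.2 TPM, then at 1.04 and 0. All 3 begin inside an intron, and the shares of Anpep-206, 18.6% and 13.7%, dropped to a mean of 0.15%.

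Flii-203 and Prrc2a-204 followed the same pattern. Flii-203, of a gelsolin-related protein, stood at 28.0 and 29.0 TPM, then at 1.03 and 0, with 87 bases of its own in 458. Prrc2a-204 stood at 32.3 and 27.3 TPM, then at 0.950 and 0.230, with 6. In all, 16 members were under 1 TPM in both libraries of the second quantification, and 5 were at 0 in both: Anxa5-202, Ppp1r21-202, Ctnnb1-210, Mfn1-210 and Cul4a-204, the last 4 named after their values were seen.

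The members furthest above included some of lysosomal and interferon-induced genes. Asah1-203, of acid ceramidase, stood at 7.98 and 29.1 TPM in the first quantification and at 55.4 and 145 in the second, where its share was 17.6% in replicate 1 and 37.6% in replicate 2. Cmpk2-203, of an interferon-induced nucleotide kinase, stood at 23.8 and 31.8 TPM, then at 130 and 92.7. Acp2-202, of lysosomal acid phosphatase, stood at 65.2 and 42.2 TPM, then at 185 and 133. Clptm1-208 and Ftl1-206 were also more than 2-fold higher in the second, by 1.66 and 1.43 on the log2 scale. For these 5 members both libraries of the second quantification lay above both of the first.

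Between the libraries, 65 members, or 10.5%, were 2-fold or more apart in log2((replicate 2 TPM + 1)/(replicate 1 TPM + 1)), 27 higher in replicate 2 and 38 in replicate 1. Of all 10725 transcripts 3.38% were that far apart, 2.04% higher in replicate 2 and 1.34% in replicate 1. It was 2.34% for protein-coding, 3.95% for nonsense-mediated decay and 10.3% for processed transcripts. With 1 library on each side there is no test of these differences. The share of a member differed by 10 or more percentage points between libraries in 61 of 620 cases, and was higher in replicate 2 in 33 of them. Such share differences were not counted over all transcripts, so it is not known whether 61 is many.

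**Figure D5:**
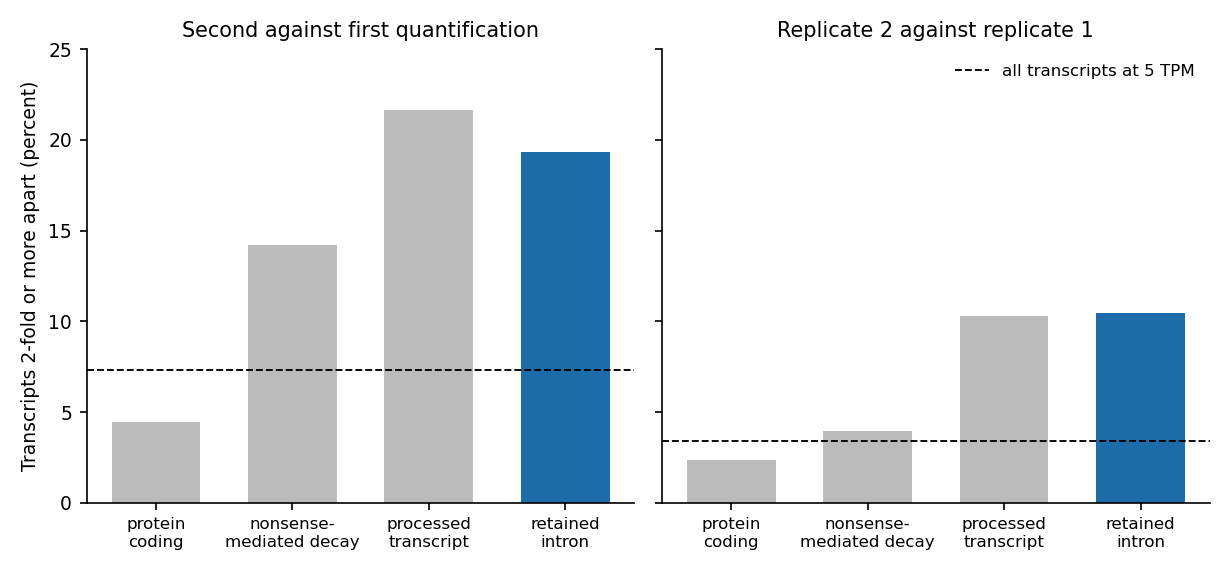
Percent of transcripts at 5 TPM or more in both libraries (y axis) that were 2-fold or more apart between quantifications (left panel) or between libraries (right panel), by annotated type (x axis). The dashed line is the percent over all 10725 transcripts; retained-intron transcripts stand at 19.4% and 10.5%, near processed transcripts at 21.7% and 10.3%.

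Higher in replicate 2, Irf7-205 stood at 7.63 and 51.3 TPM in the first quantification and at 3.84 and 42.0 in the second. Hsp90aa1-205, of an HSP90 chaperone, stood at 5.69 and 33.2 TPM, then at 2.32 and 25.5. Rtf2-202, of a replication termination factor, stood at 5.64 and 20.1 TPM, then at 17.7 and 30.3. The direction between libraries was the same in both quantifications for these 3 members.

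Higher in replicate 1, Psme2-203, of a proteasome activator subunit, stood at 232 and 59.3 TPM in the first quantification but at 50.6 and 45.2 in the second. It is the shortest member, at 185 nt, and rested on 81.8 and 17.3 expected counts. Anxa5-202, of annexin A5, stood at 23 and 5.61 TPM and at 0 in both libraries of the second quantification. Ikbke-205, of a kinase of the NF-kB and interferon pathways, stood at 29.8 and 9.37 TPM, then at 52.0 and 23.8. Stab1-204, of a scavenger receptor, stood at 24.0 and 5.59 TPM while its gene stood at 109 and 39.9.

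Of the Irf7 transcripts, 4 were members. Irf7-210 stood at 321 and 204 TPM in the first quantification and at 363 and 251 in the second, and took 13.8% and 9.74% of Irf7. Irf7-213 is a single exon across 12 annotated introns, the most of any member, and stood at 27.0 and 17.4 TPM. Irf7-206, which holds intron 7, stood at 26.9 and 24.4 TPM, then at 60.8 and 65.4. The coding Irf7-201 took a mean of 43.4% and 53.6% in the first and second quantification. All retained-intron transcripts of Irf7 together made 17.1% and 14.4% of the gene.

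Genes with the most members were receptor and MHC genes that have near-identical relatives. Lilr4b had 7 members and Lilrb4a 5, both for inhibitory receptors of the LILRB4 kind, and none of the 7 Lilr4b members had a base of its own. Retained-intron transcripts made 92.9% and 68.4% of Lilrb4a in replicates 1 and 2, and 28.0% and 17.4% of Lilr4b. H2-K1 had 6 members, 5 of them at 1.30% of the gene or less. How reads were split between these gene copies is not known, so their shares are uncertain.

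Uba7, the E1 enzyme for the ubiquitin-like protein ISG15, had 4 members, led by Uba7-212 at 41.8 and 34.1 TPM, and retained-intron transcripts made 54.5% and 42.2% of the gene. Tcirg1, a subunit of the proton pump of lysosomes and osteoclasts, had 4 members. All its retained-intron transcripts, members or not, made 31.1% and 22.1% of the gene, and the same sum made 30.3% and 34.4% of Samhd1 and 23.7% and 9.53% of Psme2, with 4 members each. Pirb had 3 members, and its retained-intron share was 78.4% and 74.5% in the first quantification and a mean of 96.7% in the second. In Aida, Stab1 and Sod2, with 3 members each, that share had means of 67.9%, 60.9% and 49.2%.

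Gene lists of splicing, surveillance and macrophage function were counted against genes that could have a member. Of 4966 genes at 5 TPM or more in both libraries with an annotated retained-intron transcript, 10.1% had a member. That percent went with the level of the gene: 0.122% at 5 to 10 TPM, 5.63% at 10 to 50, 16.5% at 50 to 100, 24.4% at 100 to 500 and 47.5% at 500 or more. The rule has a fixed TPM, so abundant genes reach it with smaller shares.

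Of the SR proteins and related regulators, which bind exons and guide splicing, 7 of 19 genes had a member (36.8%), at a median gene level of 66.2 TPM. Rsrp1-204 was the most abundant, at 233 and 124 TPM in the first quantification and 239 and 130 in the second, and took 50.9% and 32.4% of its gene. Srsf6-204 holds 3 introns and took 20.4% and 14.1%, and Srsf5-212 took 20.7% and 9.94%. The Srsf2, Srrm2, Acin1 and Son members took between 9.44% and 16.0% in replicate 1 and between 6.00% and 9.42% in replicate 2. All 7 were higher in replicate 1 in TPM and in share. Of all 620 members, 353 were higher in replicate 1 in TPM, and this was not counted for shares or over all transcripts. The 7 members come from the same 2 libraries, so their common direction is not 7 separate observations. None of the 7 was 2-fold apart between quantifications, beside 19.4% of all members and 7.31% of all transcripts.

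Other splicing lists had fewer. Of the hnRNPs and related proteins, 5 of 34 genes had a member (14.7%), with Rbm39-210 at 6.99% and 5.25% of its gene. Of the core spliceosome, 5 of 38 had one (13.2%), led by Prpf31-205 at 20.5% and 29.1% and Ddx39b-204 at 25.5% and 24.0%. None of the 8 kinases of splicing factors and none of the 13 decay and surveillance genes had a member. Their median gene levels were 20.0 and 25.5 TPM, in a range where few genes had one.

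Of the snoRNA host genes, whose introns carry small nucleolar RNAs, 5 of 25 had a member (20.0%), with Ncl-202 far above the rest in share. Gas5-219 took 4.97% and 3.33% and Rpl3-204 took 1.75% and 1.31%. Of the cytosolic ribosomal protein genes, 8 of 63 had one (12.7%), at a median gene level of 552 TPM. Rpl5-202 took 55.2% and 29.3% in the first quantification, at 41.9 and 15.8 TPM, and was at 1.94 and 0.610 TPM in the second. A median of 0.447% of the TPM of these 63 genes was in retained-intron transcripts, beside 2.48% over all 4966 genes.

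The interferon-stimulated genes had the highest percent of the 10 lists, 23 of 41 genes (56.1%) with 38 members, at a median gene level of 300 TPM. Tap2-202 led in share, followed by Nlrc5-203, of the activator of MHC class I genes, at 43.9% and 41.6%, and Samhd1-210. Stat2-206, of a transcription factor of interferon signalling, stood at 108 and 113 TPM, then at 103 and 106, and took 25.3% and 24.1%. Psmb8-205 stood at 171 and 194 TPM and took 24.4% and 27.3%. Mx2-205 and Oas1g-202, of antiviral effectors, took 20.7% and 25.4%, and 19.2% and 15.5%. The median share of retained-intron transcripts in the 41 genes was 6.72%, beside 2.48% over all 4966 genes and 13.2% in the 19 SR genes. Of the 38 members, 6 were 2-fold apart between quantifications, beside 19.4% of all members and 7.31% of all transcripts.

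Of the lysosome and antigen presentation genes, 12 of 29 had a member (41.4%), at a median gene level of 594 TPM. H2-Eb1-204, of an MHC class II beta chain, took 35.5% and 19.5%, and Tcirg1-207 took 12.3% and 6.74%. Of the inflammatory and Toll-like receptor genes, 9 of 33 had one (27.3%), led by Tnip3-205. Irak2-207, of a kinase below Toll-like receptors, took 21.3% and 18.6%, and Rela-203, of the NF-kB subunit p65, took 18.5% and 16.5%. The chemokine member Ccl5-202 was abundant, at 185 and 87.6 TPM, but took 0.84% and 0.33% of its gene. Cxcl10-203, of the interferon list, took 1.31% and 0.81%. The members of Stat2, Mx2, Oas1g, Ccl5, Cxcl10, H2-Eb1 and Tcirg1 in these lists were named after their values were seen.

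The fixed cutoff left members with little evidence beside close non-members. Just inside were Cct3-203 at 9.24 and 5.02 TPM, Srrm2-209 at 11.9 and 5.03, and Ncln-206 at 5.43 and 5.03. Just outside were Rpl10-209 at 10.1 and 4.99 TPM, Actg1-209 at 6.66 and 4.99, and Nom1-202 at 5.34 and 4.99, and Nom1-202 would have had a mean share of 55.6%. The deposited interval of the TPM had its lower bound at 5 or more in both libraries for 468 members. The other 152 could lie under 5 TPM in a library by that interval, and the sources used here do not state its level. The median expected count was 370, and 36 members had under 50 in a library.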

How the data were processed

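PolyA-selected RNA of 2 replicates of 1 group was analysed. Per the file headers, the authors deposited expected counts, TPM, FPKM and the percent of the gene's TPM per transcript, with interval bounds of the TPM (signal in TPM). A separate deposited transcript table holds estimated counts and TPM, made from the reads without that alignment. Annotation is GENCODE M21 on mm10, per the submitters' processing notes. Aligner, quantifiers and strand handling: not given in the sources used here.

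Members, lists and tests were chosen with earlier results of these data known. Retained-intron transcripts with TPM of 5 or more in both libraries were kept. Shares were computed from TPM and differed from the deposited percent by at most 0.068 points. Ratios used TPM plus a pseudocount of 1, and 2-fold was called apart. Introns, bases and sequences came from the GENCODE M21 annotation and transcripts. A few items that these rules name are not reported here. With 1 group no test was possible, and p-values are not given. Named members were the 20 highest in TPM, the 20 highest in share among genes at 10 TPM or more, the 5 furthest to each side between quantifications and between libraries, the 3 nearest to the cutoff on each side, the 3 highest shares of each list, and genes with 3 or more members. Alternatives were other cutoffs, pseudocounts, units, the second quantification and each library alone. Scripts were tested on simulated data and used Python 3.11.15, pandas 2.3.3 and NumPy 2.4.6.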

Additional observations from a re-analysis of the deposited data

How the results depend on the processing

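No paired analysis was possible because the series holds 1 group. The number of members, 620, was 2219 at a cutoff of 1 TPM and 330 at 10 TPM, and 723 to 833 when 1 library chose them. The median share, 17.6%, was 5.91% from expected counts, 12.7% in the second quantification, 5.93% at 1 TPM, 22.7% at 10 TPM and 13.6% to 16.6% with 1 library. Members that led their gene, 102, were 47 by expected counts and 128 to 134 with 1 library. Members 2-fold apart between quantifications, 120, were 78 with a pseudocount of 5, 295 at 1 TPM, 59 at 10 TPM and 163 to 171 with 1 library. Members 2-fold apart between libraries, 65, were 32 with a pseudocount of 5, 213 at 1 TPM and 26 at 10 TPM. The class total, 3.73% of transcript TPM, was 2.20% of expected counts, 3.57% in the second quantification, 3.98% without mitochondrial and rRNA transcripts and 3.67% to 3.78% with 1 library. The cutoffs of 1 and 10 TPM change how many transcripts enter, by construction. For the other settings the cause was not tested.

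4 alternatives were added after the data were seen. With only whole-intron members the number was 186, the median share 8.04%, those that led their gene 22, those apart between quantifications 20 and those apart between libraries 18. With only members of 100 or more bases of their own these were 304, 12.0%, 43, 44 and 25. With the lower interval bound at 5 TPM or more, the median share was 20.8%, and 79 and 37 were apart between quantifications and between libraries. Without H2-K1-215, Ctsb-202 and Itm2b-202 the class total was 2.77%.

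Of 38 named members, the share moved by more than the spread of the libraries in 23 in the second quantification and in 34 by expected counts. Transcript estimates cannot show reads over an intron, so none of these values is a direct measure of splicing.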
